A study of Mus musculus with 42 samples.

Results

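The genes described here are 40 mouse genes of glycolysis and of the transcriptional response to low oxygen, found by symbol among the 22186 genes of the expression matrix. All 40 were present. The glycolytic members numbered 24, namely 3 glucose and lactate transporters (Slc2a1, Slc2a3, Slc16a3), 17 enzymes (Hk1, Hk2, Gpi1, Pfkl, Pfkp, Pfkm, Aldoa, Aldoc, Tpi1, Gapdh, Pgk1, Pgam1, Eno1, Eno2, Pkm, Ldha, Ldhb) and 4 regulatory kinases (Pfkfb3, Pfkfb4, Pdk1, Pdk3). The remaining 16 members were the hypoxia-inducible factor subunit Hif1a, the oxygen sensors Egln1 and Egln3, and 13 other targets of the factor (Bnip3, Bnip3l, Vegfa, Ankrd37, Car9, Ndrg1, P4ha1, P4ha2, Adm, Mxi1, Hilpda, Higd1a, Fam162a). Poly(A) RNA-seq of 42 libraries in 14 groups of 3 was used to ask how exposure to bisphenol S (BPS), a plasticizer used in place of bisphenol A, changed gene expression in pluripotent, germ cell-like and somatic cells.

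The groups were as follows. Primordial germ cell-like cells (PGCLCs) were exposed to 1 µM BPS or to ethanol vehicle for 24 hours and collected after a further 8 hours without it (directly exposed PGCLCs). In a separate propagation experiment, induced pluripotent stem cells (iPSCs) were exposed to 1 µM BPS or vehicle and then differentiated, without further exposure, into PGCLCs (derived PGCLCs), so that the 2 groups of derived PGCLCs differed in what their parent iPSCs had received. Both kinds of PGCLC were grown as floating aggregates with BMP4, SCF, EGF and LIF and sorted for FUT4 and ITGB3. Sertoli cells from pooled juvenile male littermates and granulosa cells from preantral follicles of pooled juvenile female littermates received 1 µM BPS or vehicle. A first set of iPSCs received 0, 1, 50 or 100 µM BPS (the dose series). All iPSCs and PGCLCs came from 1 male line, made from embryonic fibroblasts of a single fetus with a doxycycline-inducible reprogramming cassette and grown without feeders. iPSCs, Sertoli cells and granulosa cells were exposed for 24 hours in sealed flasks whose medium had been gassed with 5% oxygen, whereas PGCLCs were exposed in plates. The flasks then received filter caps and fresh medium for 24 hours without BPS before the cells were collected. Cell type and culture format, and hence oxygen supply, therefore cannot be told apart in comparisons of PGCLCs with the other cells. The media differed as well. iPSCs were kept in a medium with LIF, Sertoli cells in a Sertoli cell medium with retinoic acid and granulosa cells in DMEM with serum. Cell type and medium therefore cannot be told apart in any comparison between cell types.

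Glycolysis splits glucose into pyruvate. Glucose enters through the transporters GLUT1 and GLUT3 (Slc2a1, Slc2a3), is trapped by hexokinase (Hk1, Hk2), is committed by phosphofructokinase (Pfkl, Pfkp, Pfkm) and is carried through aldolase, Gapdh, enolase and pyruvate kinase (Pkm), after which lactate dehydrogenase (Ldha, Ldhb) interconverts pyruvate and lactate and MCT4 (Slc16a3) exports lactate. Pfkfb3 and Pfkfb4 make the allosteric activator of phosphofructokinase, and Pdk1 and Pdk3 inhibit the entry of pyruvate into the mitochondrial cycle. When oxygen is ample, the prolyl hydroxylases PHD2 (Egln1) and PHD3 (Egln3) mark the HIF1A protein for destruction, and when oxygen falls HIF1A persists and activates genes through a short motif, RCGTG. Egln1 and Egln3 are themselves targets of the factor, as are genes for mitophagy (Bnip3, Bnip3l), vessel growth (Vegfa, Adm), collagen hydroxylation (P4ha1, P4ha2), acid balance (Car9) and lipid storage (Hilpda). Because HIF1A is controlled mainly as a protein, the level of Hif1a RNA is not a measure of its activity.

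Promoter sequence is shown for some of the members that fell in directly exposed PGCLCs and whose windows held the motif to which HIF1A binds, so that the motif can be seen in its surroundings. RefSeq promoter windows on GRCm38.p6 of 300 bases each were found for 37 of the 40 members (54 windows, since some genes have several starts). ACGTG on either strand occurred in 57.4% of the members' windows, against 24.5% of the windows of all genes tested in directly exposed PGCLCs and 19.6% of all 32851 windows. The share was 77.8% for the HIF factor, sensors and other targets (14 of 18 windows) and 47.2% for the glycolytic members (17 of 36). The other form of the motif, GCGTG, was found in 57.4% of the members' windows and 48.1% of those of the tested genes. Further members that fell, among them Hk2, Egln1 and Vegfa, had ACGTG but are not shown. Pdk1, Pfkp, Eno1, Adm, Gpi1 and Tpi1 fell as well and had no ACGTG in any window. Among members not called in directly exposed PGCLCs, Ldha, Hif1a, Pfkm, Hk1, P4ha2, Fam162a, Mxi1, Aldoc and Pdk3 had ACGTG too. Pfkl, Pfkfb4, Ldhb and Eno2 did not. Whether the motif bears on the fall was not tested. CACGTG reads as ACGTG on both strands and is shown with 6 capitals. In the stretches shown, each written 5′ to 3′ on the strand of the gene, capitals mark ACGTG or CACGTG. All stretches lie upstream of a RefSeq start of transcription of the gene. A match is a run of letters and not a measured binding site, and of the 37 members Eno2, Gpi1 and Tpi1 had no window with either form.
Bnip3, chr7:138909569-138909654 (minus strand): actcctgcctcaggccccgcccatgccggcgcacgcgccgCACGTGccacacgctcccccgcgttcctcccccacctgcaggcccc
Ankrd37, chr8:45999851-45999896 (minus strand): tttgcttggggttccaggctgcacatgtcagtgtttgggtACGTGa
Egln3, chr12:54204059-54204124 (minus strand): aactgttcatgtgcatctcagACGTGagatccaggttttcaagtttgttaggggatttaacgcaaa
Pfkfb3, chr2:11553945-11554029 (minus strand): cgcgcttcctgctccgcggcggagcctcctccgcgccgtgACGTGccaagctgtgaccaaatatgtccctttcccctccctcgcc
Pfkfb3, a second start, chr2:11502098-11502183 (minus strand): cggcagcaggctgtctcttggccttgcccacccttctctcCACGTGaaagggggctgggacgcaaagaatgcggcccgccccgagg
Slc2a1, chr4:119108669-119108744 (plus strand): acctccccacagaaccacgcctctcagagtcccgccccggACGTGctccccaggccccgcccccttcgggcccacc

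Between 26693847 and 44524376 reads were counted per library. Levels are given as CPM, the reads of a gene scaled to a common library size, computed from the deposited log2 values, and every value between 0 and 1000 reads, 68.4% of those above 0, came out as a whole read count (tolerance 0.05 reads). Changes were tested with limma across all genes that reached 0.5 CPM in at least 3 of the libraries compared, and a gene was called where its Benjamini-Hochberg adjusted p over all genes tested was at most 0.05. Replicates were separate cultures of 1 line or of pooled animals, and p-values therefore reflect no more than how such cultures vary. Sertoli libraries held the Sertoli markers (summed over 5 genes, 1310.3 to 1383 CPM after BPS and 1346 to 1367 CPM after vehicle), PGCLCs held Prdm1, Tfap2c, Nanos3 and Dppa3, and iPSCs held Pou5f1, Sox2 and Nanog. In granulosa cells, Foxl2 and Inha were present but Fshr averaged 0.555 CPM after BPS and 0.451 CPM after vehicle, and smooth muscle, stromal and steroidogenic markers (Acta2, Col1a1, Cyp11a1) were abundant. Summed over 10 genes, markers of other cells were high in Sertoli libraries too, at 1867 to 1992 CPM after vehicle. They reached 4065 to 4177 CPM in granulosa vehicle libraries. The part of other cells in comparisons between cell types was not tested. By a mean chi-square per gene between replicates, some libraries stood apart from the others of their group. Propagation iPSC BPS replicate 2 had 61.6 and 63.98, against 6.45 between the other libraries of its group. Direct PGCLC vehicle replicate 1 had 42.04 and 45.2, against 2.09. Granulosa vehicle replicate 2 had 19.6 and 27.5, against 3.83. Derived PGCLC vehicle replicate 2 had 18.4 and 15.1, against 4.44. Derived PGCLC BPS replicate 3 did so less (16.5 and 14.3, against 7.06). Eno1 is uncertain because the near-identical copy Eno1b took most of the reads of the pair.

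The levels of the members differed widely between cell types. In the vehicle libraries, 19 of the 40 members were called higher and 17 lower in Sertoli cells than in dose series iPSCs, where 45.1% and 46.5% of all genes tested were called higher and lower. In granulosa cells 20 members were called higher and 18 lower than in the same iPSCs, where 44.6% and 46.7% of all genes were. The shares of members were thus near those of all genes, and both comparisons used the same iPSC libraries. The sign did differ between the groups of members. Of the 24 glycolytic members, 14 were lower in Sertoli cells and 15 in granulosa cells, whereas 11 and 13 of the 16 HIF factor, sensor and target genes were higher (median log2 fold change 0.93 in Sertoli cells and 1.40 in granulosa cells, against -0.044 and -0.047 over all genes).

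Slc2a3, the high-affinity glucose transporter GLUT3, had 23.8, 23.2 and 26.1 CPM in Sertoli cells and 8.07, 7.63 and 7.27 CPM in granulosa cells, against 987, 947 and 918 CPM in iPSCs. The somatic libraries lay far below every iPSC library, with log2 fold changes of -5.29 (adjusted p = 3.71e-12) in Sertoli cells and -6.95 (adjusted p = 1.73e-12) in granulosa cells. P4ha1, a collagen prolyl hydroxylase subunit, had 233, 249 and 243 CPM in Sertoli cells and 231, 216 and 219 CPM in granulosa cells, against 16.6, 16.6 and 16.2 CPM in iPSCs. Its groups did not overlap, with log2 fold changes of 3.87 (adjusted p = 3.31e-12) in Sertoli cells and 3.75 (adjusted p = 6.68e-12) in granulosa cells. Pfkp, the platelet-type phosphofructokinase, had 23.2, 23.5 and 23.5 CPM in Sertoli cells and 34.7, 36.6 and 33.4 CPM in granulosa cells, against 272, 275 and 265 CPM in iPSCs, so that both somatic types were low. The oxygen sensors moved in opposite directions. Egln1 averaged 106 ± 6.79 CPM in Sertoli cells and 111 ± 3.98 CPM in granulosa cells, against 12.3 ± 0.723 CPM in iPSCs (SD, n = 3 each). Egln3 averaged 1.01 ± 0.579 CPM in Sertoli cells and 0.775 ± 0.113 CPM in granulosa cells, against 21.6 ± 0.350 CPM in iPSCs. Adm, the vasodilator peptide adrenomedullin, was highest in Sertoli and granulosa cells (35.1 and 21.6 CPM) and lay between 0 and 0.187 CPM in every dose series iPSC library.

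Sertoli and granulosa cells differed from each other in 33 members, and most of all genes tested differed between them as well. In Sertoli cells 21 of 40 members were called higher and 12 lower than in granulosa cells, against 38.1% and 40.6% of all genes. Upper quartile scaling moved the median log2 fold change of all genes to -0.12, against -0.026, and gave 18 members higher and 17 lower. The mitophagy receptor Bnip3l, called higher here at a log2 fold change of 0.080, had -0.013 under that scaling. Ldhb, the heart-type lactate dehydrogenase, had 598, 596 and 578 CPM in Sertoli cells, against 124, 121 and 124 CPM in granulosa cells (log2 fold change 2.26 ± 0.027 (SE), adjusted p = 2.14e-15). Pfkl and Hk2 were also higher in Sertoli cells, at 337 against 87.4 CPM and 389 against 108 CPM. Vegfa, the main vessel growth factor, had 107, 110.2 and 104 CPM in Sertoli cells, against 334, 319 and 328 CPM in granulosa cells (log2 fold change -1.61 ± 0.03 (SE), adjusted p = 1.06e-13). Fam162a, a mitochondrial HIF target, was lower in Sertoli cells too (26.9 against 89.2 CPM, log2 fold change -1.73, adjusted p = 5.18e-13). Markers of other cells summed to 1867 to 1992 CPM in these Sertoli libraries and 4065 to 4177 CPM in these granulosa libraries, and their part was not tested.

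**Figure D1:**
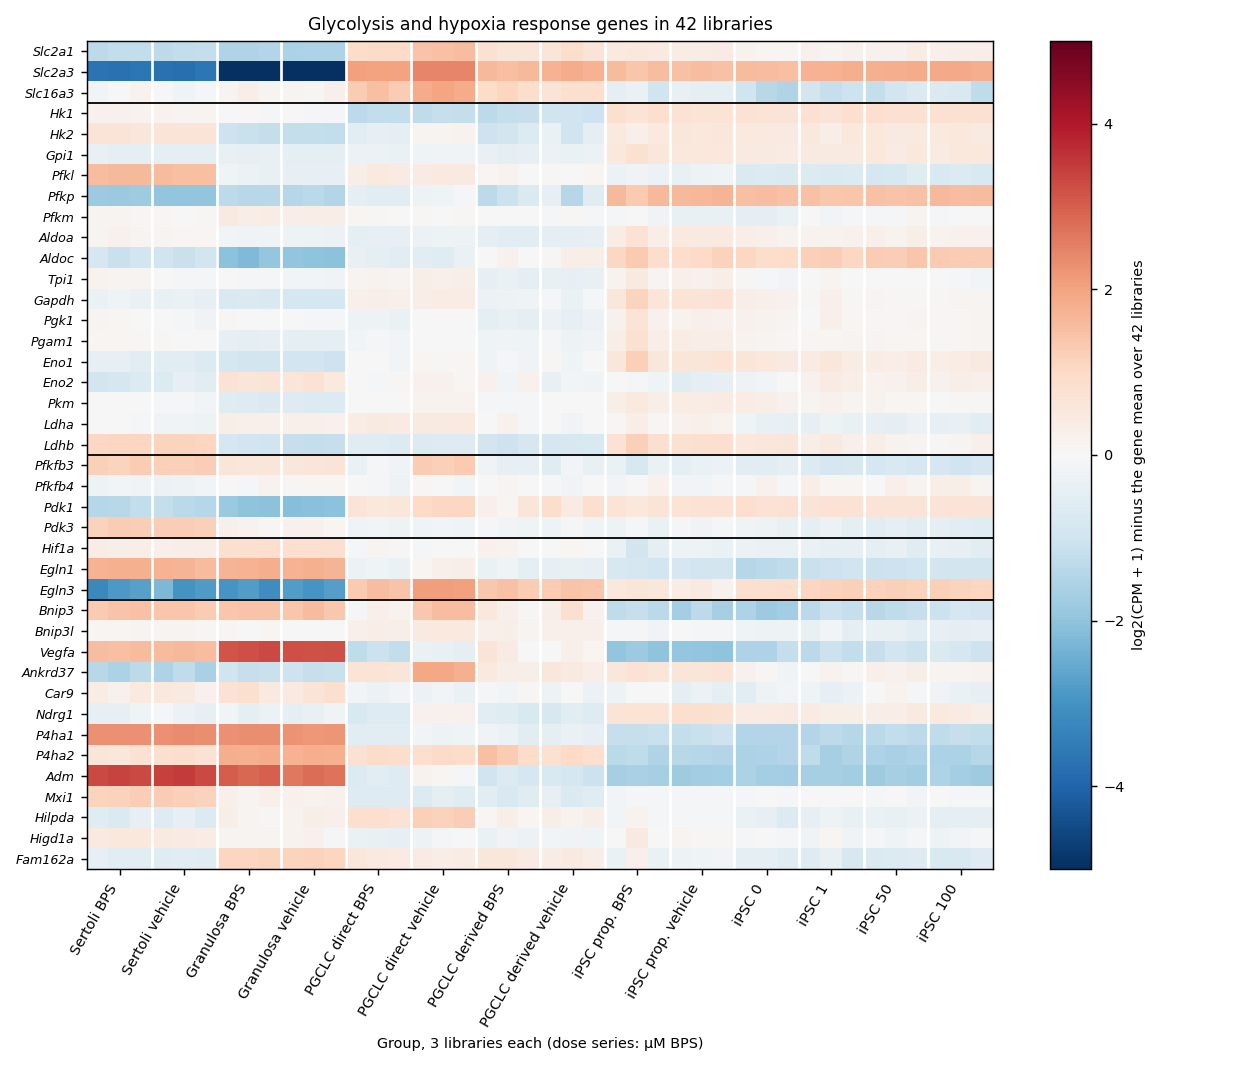
Heat map of the 40 members (vertical axis, black lines separate transporters, enzymes, regulatory kinases, factor and sensors, and other targets) in the 42 libraries (horizontal axis, 3 per group). Colour gives log2(CPM + 1) minus the gene's mean over all libraries. Slc2a3 and Egln3 were low in every Sertoli and granulosa library, Adm and P4ha1 were high there, and the directly exposed PGCLC vehicle libraries had the highest group mean of Bnip3 (24.98 CPM), Pfkfb3 (39.9 CPM) and Slc2a1 (407 CPM).

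Isoform shares differed between cell types. Shares of a gene family were computed from CPM per kilobase of the longest coding transcript, which allows levels of different genes to be compared. Ldha, the muscle-type lactate dehydrogenase, made up 30.2% ± 0.336 of the Ldha and Ldhb sum in Sertoli cells, 73.8% ± 0.517 in granulosa cells, 69.7% ± 0.130 in vehicle PGCLCs of the direct experiment and 64.02% ± 1.56 in those of the propagation experiment, against 41.3% ± 0.785 in propagation iPSCs and 36.01% ± 2.07 in dose series iPSCs (SD, n = 3 each, vehicle). Sertoli cells and iPSCs therefore held mostly Ldhb, and granulosa cells and PGCLCs mostly Ldha. Pfkl, the liver-type phosphofructokinase, made up 81.8% ± 0.292 of its family in Sertoli cells, 55.5% ± 0.885 and 54.6% ± 2.45 in the direct and derived PGCLCs, and 23.5% ± 0.560 and 20.04% ± 0.0763 in the propagation and dose series iPSCs, where Pfkp was the main isoform (66.7% ± 0.252 and 69.1% ± 0.703). GLUT1 was the main glucose transporter of somatic cells, with 75.2% ± 1.12 of the Slc2a1 and Slc2a3 sum in Sertoli cells and 88.7% ± 0.679 in granulosa cells, against 16.97% ± 0.175 in dose series iPSCs. The 2 iPSC sets were not identical, since Egln1 took 45.4% ± 2.30 of the Egln1 and Egln3 sum in the propagation set and 29.5% ± 0.947 in the dose series.

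**Figure D2:**
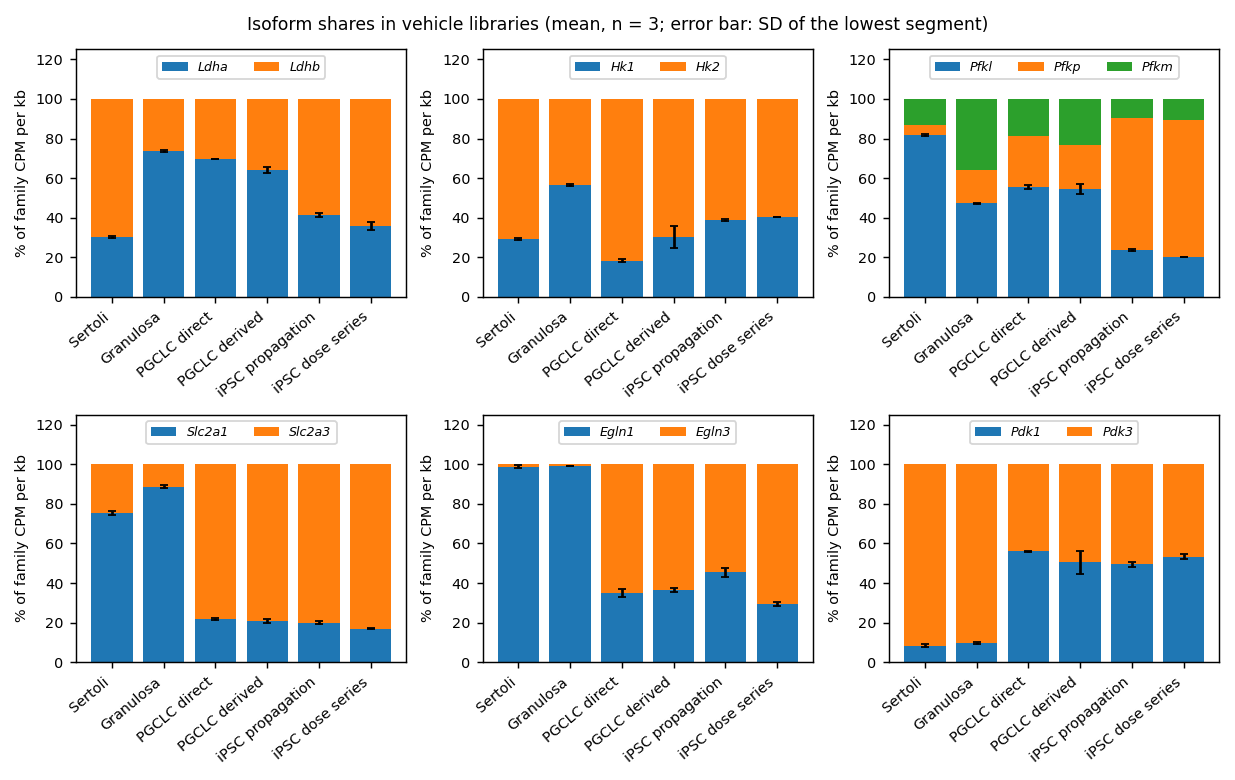
Stacked bars of isoform shares (percent of the family's CPM per kilobase) in the vehicle groups of 6 gene families, with the mean of 3 libraries and the SD of the lowest segment. Ldha was the larger segment in granulosa cells and PGCLCs and the smaller one in Sertoli cells and iPSCs, and Slc2a3, Egln3 and Pdk1 took small shares in Sertoli and granulosa cells.

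Directly exposed PGCLCs had lower levels of most glycolysis and hypoxia response genes after BPS than after vehicle. Of 39 members tested (Car9, the membrane carbonic anhydrase, was below the level filter), 26 (66.7%) were called lower and 0 higher after BPS, whereas 11.3% of all genes tested were called lower and 15.4% higher. The median log2 fold change of the members was -0.17, against 0.015 over all genes tested. All 3 transporters fell, as did 10 of 17 enzymes, 2 of 4 regulatory kinases, both oxygen sensors and 9 of 12 other HIF targets tested. The sizes differed between these roles, with a median of -0.53 for transporters, -0.12 for enzymes, -0.27 for kinases and -0.37 for other HIF targets. In bulk RNA, fewer cells of a type and less RNA per cell cannot be told apart.

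The largest change was in Pfkfb3, the kinase that activates phosphofructokinase. It had 12.6, 15.6 and 14.3 CPM in BPS PGCLCs, against 40.1, 38.1 and 41.6 CPM in vehicle PGCLCs, a decrease of 64.5% (log2 fold change -1.496 ± 0.069 (SE), adjusted p = 9.6e-09). Each BPS library lay below every vehicle library by more than the spread of either group. Hk2, the inducible hexokinase, had 171, 185 and 179 CPM after BPS, against 277, 278 and 281 CPM after vehicle (log2 fold change -0.64 ± 0.032 (SE), adjusted p = 1.27e-08). Hk1, the constitutive hexokinase, had 45.1, 46.99 and 47.2 CPM after BPS, against 45.5, 50.5 and 49.01 CPM after vehicle, and was not called (log2 fold change -0.056, adjusted p = 0.388). The share of Hk1 in the hexokinase sum was accordingly 25.1% ± 0.428 after BPS and 18.3% ± 0.768 after vehicle. Slc2a1 had 274, 286 and 288 CPM after BPS, against 394, 406 and 422 CPM after vehicle (log2 fold change -0.53 ± 0.032 (SE), adjusted p = 4.01e-08). Slc2a3 had 1349, 1317 and 1316 CPM after BPS, against 1759, 1777 and 1781 CPM after vehicle (log2 fold change -0.42 ± 0.026 (SE), adjusted p = 5.37e-08). Both glucose transporters thus separated the groups without overlap, and the lactate exporter Slc16a3 did so at 29.8, 35.4 and 30.1 CPM after BPS, against 45.4, 49.1 and 45.6 CPM after vehicle.

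Most enzymes moved less than Hk2. Pgk1 fell by 17.5% and Pfkp by 22.2%, while the changes of Pkm, Aldoa, Tpi1, Gpi1, Pgam1, Eno1 and Gapdh were called at log2 fold changes between -0.16 and -0.10. Ldha had 525, 557 and 543 CPM after BPS, against 550.01, 558 and 566 CPM after vehicle, and was not called (log2 fold change -0.042, adjusted p = 0.311). Under upper quartile scaling Ldha was called lower (log2 fold change -0.079, adjusted p = 0.0259 in limma). Ldhb, Pfkm and Aldoc had log2 fold changes of 0.022, 0.0028 and 0.0038 and were not called, nor were Pfkl and Eno2. Of the pyruvate dehydrogenase kinases, Pdk1 fell (82.7 against 112 CPM, log2 fold change -0.44, adjusted p = 6.56e-07) and Pdk3 was not called (log2 fold change -0.044, adjusted p = 0.522). Pfkfb4 was not called (log2 fold change -0.11, adjusted p = 0.513), and Pfkfb3 made up 67.2% ± 3.75 of the pair after BPS and 84.4% ± 1.39 after vehicle. Summed over the 24 glycolytic members, RNA amounted to 7531 ± 107 CPM after BPS and 8796 ± 79.9 CPM after vehicle (SD, n = 3 each).

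Among the other HIF targets the largest change was in Bnip3, a mitophagy receptor, with 8.07, 10.2 and 9.64 CPM after BPS, against 22.9, 26.1 and 25.9 CPM after vehicle (log2 fold change -1.42 ± 0.084 (SE), adjusted p = 3.53e-08). Its relative Bnip3l fell less (log2 fold change -0.17, adjusted p = 0.00214), so that Bnip3 made up 13.97% ± 1.19 of the pair after BPS and 27.98% ± 1.04 after vehicle. Ankrd37, an ankyrin repeat protein, had 4.71, 4.71 and 4.40 CPM after BPS, against 12.7, 12.5 and 11.4 CPM after vehicle (log2 fold change -1.40 ± 0.085 (SE), adjusted p = 3.85e-08). Neither gene had overlapping groups. Ndrg1, a stress-responsive gene, had 8.10, 8.74 and 8.81 CPM after BPS, against 16.6, 16.8 and 16.6 CPM after vehicle, and Vegfa had 13.95, 15.9 and 14.3 CPM after BPS, against 27.1, 26.3 and 24.5 CPM after vehicle. Adm fell at a low level, with 1.12, 1.34 and 1.20 CPM after BPS, against 2.87, 2.64 and 2.33 CPM after vehicle (log2 fold change -1.08, adjusted p = 0.000256). P4ha1, Hilpda and Higd1a fell by 20.5%, 25.1% and 15.2%. The sensors Egln3 (33.01 against 52.4 CPM, log2 fold change -0.67, adjusted p = 1.06e-06) and Egln1 (26.8 against 37.9 CPM, log2 fold change -0.498, adjusted p = 1.61e-05) were lower, while Hif1a itself was not called, at 173, 199 and 192 CPM after BPS and 170.1, 182 and 179 CPM after vehicle (log2 fold change 0.086, adjusted p = 0.167). P4ha2, Mxi1 and Fam162a did not pass either, with log2 fold changes of -0.056, -0.054 and 0.12. Hif1a was called higher without BPS replicate 1 (adjusted p = 0.0021) and Fam162a without BPS replicate 3 (adjusted p = 0.0481).

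HIF targets outside the 40 members gave 10 lower and 0 higher of 19 tested in the same libraries, against 11.3% and 15.4% of all genes. These included Ddit4, an inhibitor of mTORC1 (199 against 336 CPM, log2 fold change -0.76, adjusted p = 8.36e-08), Kdm3a, a histone demethylase (144 against 221 CPM, log2 fold change -0.62, adjusted p = 1.64e-08), and Ak4, a mitochondrial adenylate kinase (log2 fold change -0.69, adjusted p = 4.44e-07). Of 13 regulators of the pathway, Hif3a rose (18.1 against 13.5 CPM, log2 fold change 0.43, adjusted p = 0.000216) and Vhl and Epas1 fell slightly (log2 fold changes -0.15 and -0.15). Of all genes, 15.4% were called higher and 11.3% lower, so the regulators did not stand out.

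Markers of cell state moved with these changes. The summed level of 4 pluripotency genes was 1118 to 1245 CPM after BPS and 1338 to 1381 CPM after vehicle, with 3 of 4 called lower. That of 6 PGCLC markers was 183 to 206 CPM after BPS and 213 to 217 CPM after vehicle, with 3 of 6 lower. Markers of differentiating cells gave 728 to 808 CPM after BPS and 694 to 718 CPM after vehicle, and 3 of 7 were higher, among them Mixl1, a primitive streak gene (17.3 against 6.48 CPM, log2 fold change 1.42, adjusted p = 3.53e-08). Summed over 10 markers of other cells, levels were 115 to 119 CPM after BPS and 113 to 119 CPM after vehicle, and the macrophage marker Adgre1 was at 0 in both. Genes of ribosomal RNA type took 0.0459 to 0.278% of reads after BPS and 0.0481 to 1.03% after vehicle, highest in vehicle replicate 1. The part of these differences in the members' changes was not tested. Between 23 and 27 members were called when any 1 library was left out, with 26 lower and 0 higher without vehicle replicate 1. There were 16 called in a fit of all 42 libraries with a shared spread.

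The derived PGCLCs, whose parent iPSCs had received BPS, gave no member called in either direction by limma of 39 tested, and 0% of all genes were called higher and 0% lower. An unadjusted p under 0.05 was found for 8 members, or 20.5% of those tested, against 15.8% of all genes, and voom called none. A fit of all 42 libraries called Hk1 and Pdk1 lower and P4ha2 higher. The smallest p belonged to Hk1, at 44.8, 48.5 and 49.5 CPM in BPS-derived cells and 55.5, 56.3 and 54.7 CPM in vehicle-derived cells (log2 fold change -0.22 ± 0.055 (SE), adjusted p = 0.207). Slc2a3 came next, at 1017, 933 and 1013 CPM in BPS-derived cells, against 1085, 1171 and 1082 CPM in vehicle-derived cells (log2 fold change -0.17, adjusted p = 0.215). The groups of both genes were separate but close. Pfkfb3 had 14.2, 11.8 and 11.9 CPM in BPS-derived and 10.2, 14.8 and 12.2 CPM in vehicle-derived cells, and Bnip3 had 12.4, 10.05 and 8.82 CPM in BPS-derived and 10.3, 15.5 and 9.80 CPM in vehicle-derived cells, so that both overlapped. Vehicle replicate 2 stood apart for Pfkp and for Hk2, which had 122, 129.96 and 153 CPM in BPS-derived and 197, 124 and 182 CPM in vehicle-derived cells.

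The response to BPS differed between the 2 PGCLC experiments when the difference itself was tested over their 12 libraries. Of 39 members, 10 had a more negative response in directly exposed than in derived PGCLCs and 0 a more positive one, against 1.12% and 0.852% of all genes. They were the 3 transporters, Pfkfb3, both sensors and the targets Bnip3, Vegfa, Ankrd37 and Ndrg1. Of the 17 enzymes 0 passed in limma or voom, and 5 (29.4%) had an unadjusted p under 0.05, against 17.7% of all genes. For Pfkfb3 the responses were -1.496 in directly exposed and 0.037 in derived PGCLCs, a difference of -1.53 ± 0.17 (SE, adjusted p = 0.0014). For Ankrd37 they were -1.40 and -0.12 (difference -1.27, adjusted p = 0.0015), and for Ndrg1 -0.96 and 0.034 (difference -0.998, adjusted p = 0.00336). Slc2a3 passed narrowly (difference -0.25, adjusted p = 0.0416) and did not pass when any 1 of 10 libraries was left out, the exceptions being replicate 2 of either derived group. Slc2a1 and Bnip3 did not pass without direct vehicle replicate 2 or 3 (adjusted p between 0.051 and 0.0612).

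The vehicle PGCLCs of the 2 experiments were themselves far apart. In the direct experiment 27 of 39 members were called higher and 3 lower than in the propagation experiment, against 20.6% and 23.3% of all genes (median 0.33, against -0.0076 over all genes). This comparison uses the same direct vehicle libraries as the test of BPS. All 3 direct vehicle libraries lay above all 9 other PGCLC libraries, directly exposed BPS libraries included, for 23 of 39 members, against 7.87% of all genes. Mean Pfkfb3 was 14.2 CPM in direct BPS PGCLCs and 39.9 CPM in direct vehicle PGCLCs, beside 12.7 CPM in derived BPS and 12.4 CPM in derived vehicle PGCLCs. Mean Bnip3 was 9.32 and 24.98 CPM in direct BPS and direct vehicle PGCLCs, beside 10.4 and 11.9 CPM in derived BPS and derived vehicle PGCLCs. For Pfkfb3 and Bnip3 the directly exposed BPS libraries thus had levels near those of the derived PGCLCs, and the direct vehicle libraries stood alone. Other members differed in this. Slc2a3 had 1349, 1317 and 1316 CPM in direct BPS PGCLCs, above the 933 to 1171 CPM of the derived PGCLCs. Tpi1 had 279, 291 and 280 CPM, above 186 to 200 CPM. Vegfa had 13.95, 15.9 and 14.3 CPM, below 34.4 to 54.6 CPM. Tpi1 (log2 fold change 0.68, adjusted p = 1.17e-05), Slc16a3 (log2 fold change 1.15, adjusted p = 1.27e-05) and Hilpda (log2 fold change 1.01, adjusted p = 2.62e-05) were higher in direct than in derived vehicle PGCLCs. Vegfa (25.9 against 37.9 CPM), Aldoc (5.29 against 9.31 CPM) and Hk1 (48.3 against 55.5 CPM) were lower there. Among markers of other cells, the sum was 113 to 119 CPM in direct and 339.6 to 479.7 CPM in derived vehicle PGCLCs, with Col1a1 at 54.02 against 287 CPM, and the part of this difference, or of the times at which the 2 experiments were collected, was not tested.

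**Figure D3:**
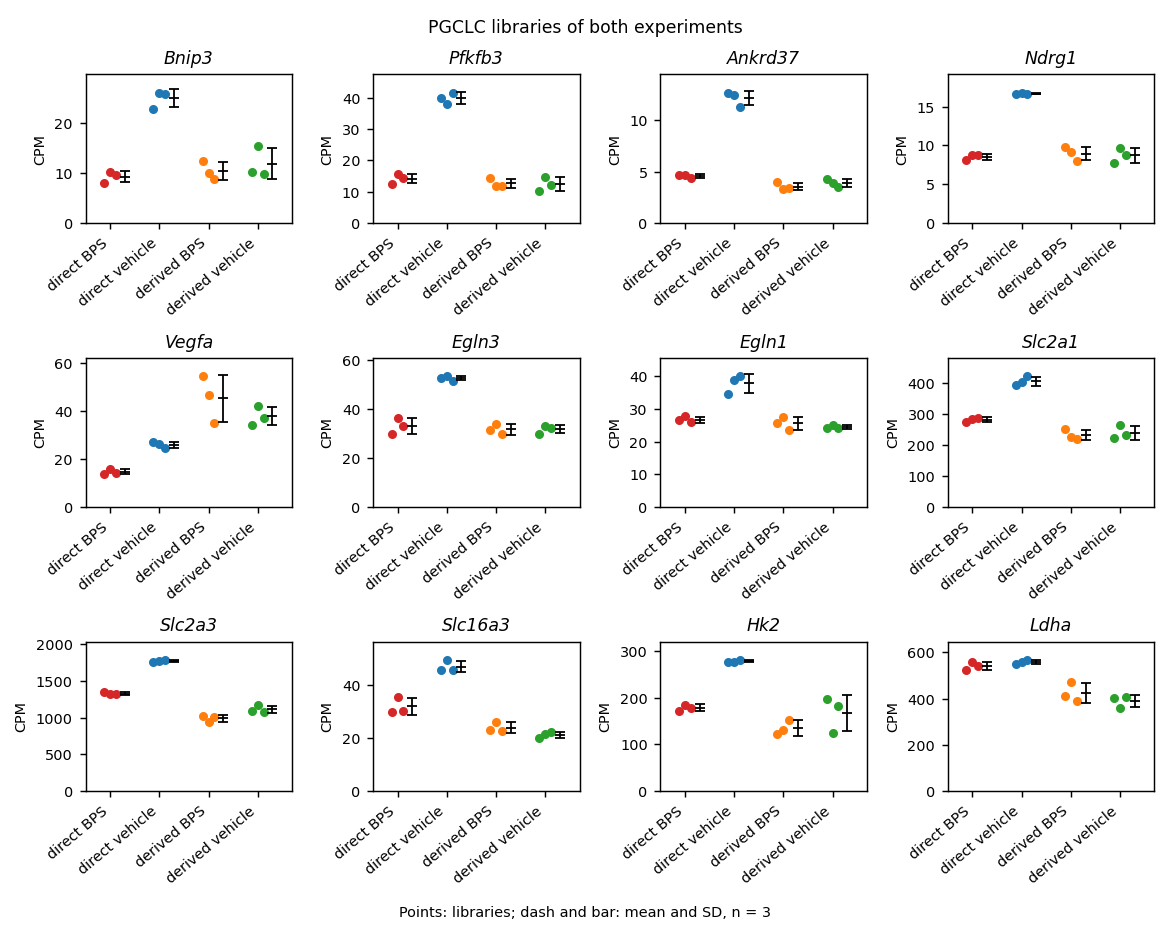
CPM (vertical axes, from 0) of 12 members in the PGCLC groups of both experiments (horizontal axes). Points are libraries, and the dash and bar give the mean and SD of 3. Direct vehicle libraries of Bnip3, Pfkfb3, Ankrd37, Ndrg1, Egln3, Egln1, Slc2a1, Slc2a3, Slc16a3 and Hk2 lay above all 9 other libraries, whereas Vegfa was highest in the derived PGCLCs and Ldha overlapped between direct BPS and direct vehicle.

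Between derived PGCLCs and the iPSCs they came from, glycolytic enzymes and HIF targets differed in opposite directions. In derived PGCLCs 16 members were called higher and 17 lower than in propagation iPSCs, against 34.9% and 40.1% of all genes. Of the 17 enzymes, 14 were lower and 2 higher (median -0.71, against -0.050 over all genes). All 3 transporters were higher, as were 11 of 15 factor, sensor and target genes, with 3 lower. Hk1 had 55.5, 56.3 and 54.7 CPM in derived PGCLCs, against 185, 182 and 181 CPM in iPSCs (log2 fold change -1.72 ± 0.035 (SE), adjusted p = 5.07e-09). Ldhb had 153, 157 and 162 CPM in derived PGCLCs, against 468, 481 and 490.5 CPM in iPSCs (log2 fold change -1.61 ± 0.036 (SE), adjusted p = 6.22e-09). In contrast, P4ha2, another collagen hydroxylase subunit, had 21.7, 25.03 and 22.6 CPM in derived PGCLCs, against 4.05, 3.88 and 3.76 CPM in iPSCs (log2 fold change 2.56 ± 0.089 (SE), adjusted p = 4.67e-08), and Vegfa had 34.4, 42.01 and 37.4 CPM in derived PGCLCs, against 8.28, 8.13 and 7.93 CPM in iPSCs. None of these groups overlapped. Aldoa and Gpi1, the aldolase and the glucose phosphate isomerase of the main pathway, were lower in derived PGCLCs, with log2 fold changes of -0.92 and -0.84. Markers of other cells summed to 339.6 to 479.7 CPM in derived PGCLCs and 107 to 111 CPM in iPSCs, and markers of differentiating cells to 592 to 919.6 CPM in derived PGCLCs and 121 to 124.6 CPM in iPSCs, and their part was not tested.

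In iPSCs of the dose series, Bnip3, Egln1, Egln3, Pfkm, Eno2 and Slc2a3 were called higher and Ldhb lower at every dose of BPS, and Pfkfb3 was called lower at 50 and 100 µM and narrowly at 1 µM. In a fit of all 42 libraries Egln3 was called at no dose (adjusted p between 0.344 and 0.563). The limma calls of Slc2a3 and Ldhb at 1 µM were lost without 1 µM replicate 3 or vehicle replicate 2 or 3 (adjusted p between 0.059 and 0.0933). That of Slc2a3 was also lost in a fit of the 6 libraries of the 2 groups (adjusted p = 0.0553). At 1 µM, 6 of 38 members tested (15.8%) were called higher and 2 (5.26%) lower than in vehicle, against 5.61% and 2.94% of all genes. At 50 µM the counts were 9 (23.7%) higher and 7 (18.4%) lower, against 13.1% and 13.3%, and upper quartile scaling gave 11 higher and 3 lower (7 and 1 at 1 µM). At 100 µM they were 10 (26.3%) higher and 4 (10.5%) lower, against 15.3% and 15.4%. The 3 doses share their vehicle libraries, and Car9 and Adm were below the level filter. Without vehicle replicate 2, 5 members were called at 1 µM and 10 at 50 µM. Median log2 fold changes stayed near 0 at each dose, at 0.010, -0.020 and -0.013. Of the 14 HIF factor, sensor and target genes tested, 3, 5 and 5 were higher and 0, 2 and 0 lower at 1, 50 and 100 µM, and of 24 glycolytic members 3, 4 and 5 were higher and 2, 5 and 4 lower. Cell state markers differed between exposed and vehicle libraries as well, and none of the PGCLC and differentiating cell markers was called between 100 and 1 µM. Summed over 6 PGCLC markers, levels were 124 to 130.1 CPM at 0 µM, 92.3 to 99.3 CPM at 1 µM, 86.9 to 92.8 CPM at 50 µM and 88.6 to 91.04 CPM at 100 µM, and summed over 7 markers of differentiating cells they were 162 to 165, 212 to 253, 256 to 313 and 240.00 to 259 CPM in the same order, and their part was not tested.

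Bnip3 had 2.18, 1.63 and 1.83 CPM at 0 µM, 2.70, 3.49 and 3.23 CPM at 1 µM, 2.61, 2.91 and 3.16 CPM at 50 µM and 3.43, 4.22 and 3.77 CPM at 100 µM. All exposed libraries lay above all vehicle libraries, with log2 fold changes of 0.73 (adjusted p = 0.00365), 0.62 (adjusted p = 0.00388) and 1.01 (adjusted p = 5.02e-05) in order of dose. Egln1 had 11.5, 12.3 and 12.9 CPM at 0 µM, 14.6, 15.3 and 15.9 CPM at 1 µM, 14.8, 15.4 and 15.8 CPM at 50 µM and 16.6, 16.96 and 16.6 CPM at 100 µM, with log2 fold changes of 0.32, 0.32 and 0.45. Again no exposed library reached down to the vehicle libraries. Pfkm, the muscle-type phosphofructokinase, had 28.7, 28.4 and 31.7 CPM at 0 µM, 39.4, 36.1 and 37.6 CPM at 1 µM, 38.4, 38.5 and 43.9 CPM at 50 µM and 38.04, 40.3 and 40.7 CPM at 100 µM, with log2 fold changes of 0.35 (adjusted p = 0.00214), 0.44 (adjusted p = 6.84e-05) and 0.42 (adjusted p = 8.84e-05). Its groups did not overlap either. Eno2, the neuronal enolase, averaged 2.84, 4.26, 3.96 and 4.07 CPM in order of dose. Slc2a3 averaged 951, 1105, 1152 and 1192 CPM, and Egln3 averaged 21.6, 26.6, 27.5 and 26.4 CPM. Vegfa was called at 50 and 100 µM (12.4 CPM at 0 µM, 16.3 CPM at 50 µM and 18.8 CPM at 100 µM), and so were Aldoc, the brain-type aldolase, and P4ha1.

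Ldhb was called lower at every dose, and Pfkfb3 at 50 and 100 µM and, narrowly, at 1 µM. Ldhb had 400.2, 412 and 423 CPM at 0 µM, 333, 375 and 332 CPM at 1 µM, 339, 307 and 301 CPM at 50 µM and 284, 300.4 and 326 CPM at 100 µM, with log2 fold changes of -0.25 (adjusted p = 0.016), -0.38 (adjusted p = 0.000181) and -0.44 (adjusted p = 4.01e-05). Its partner Ldha was called at none of the doses (log2 fold changes -0.0092, -0.048 and -0.10), and the Ldha share was 36.01% ± 2.07, 39.9% ± 0.343, 41.5% ± 2.67 and 41.7% ± 2.92 at 0, 1, 50 and 100 µM (SD, n = 3 each). Pfkfb3 averaged 10.98 ± 0.432, 9.08 ± 0.666, 8.63 ± 0.428 and 8.30 ± 0.612 CPM. Its call at 1 µM (log2 fold change -0.28, adjusted p = 0.0473) was lost under voom (adjusted p = 0.0544), under each other alternative without a library left out (adjusted p between 0.0509 and 0.147) and without 1 µM replicate 2 or 3 or any 1 vehicle library (adjusted p between 0.0948 and 0.148). Pdk3 fell at 50 and 100 µM and Pkm, the M-type pyruvate kinase, at 100 µM (2284 CPM at 0 µM and 1927 CPM at 100 µM). Gapdh, Pdk1, Hif1a and Bnip3l were called lower at 50 µM, with adjusted p between 0.0337 and 0.0488, and Slc2a1 was called higher at 100 µM. Between 100 and 1 µM no member was called by limma or voom, against 0.324% higher and 0.116% lower of all genes, and 7 of 38 had an unadjusted p under 0.05, against 17% of all genes. Without 1 µM replicate 1, Pfkp was called. Among pathway genes outside the members, 2 of 17 HIF targets (11.8%) were higher and 5 (29.4%) lower at 100 µM, against 15.3% and 15.4% of all genes, and those lower included Ddit4 (log2 fold change -0.45, adjusted p = 9.78e-05). The pyruvate dehydrogenase kinase Pdk4 was called higher at each dose, with log2 fold changes of 0.36, 0.58 and 0.70.

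**Figure D4:**
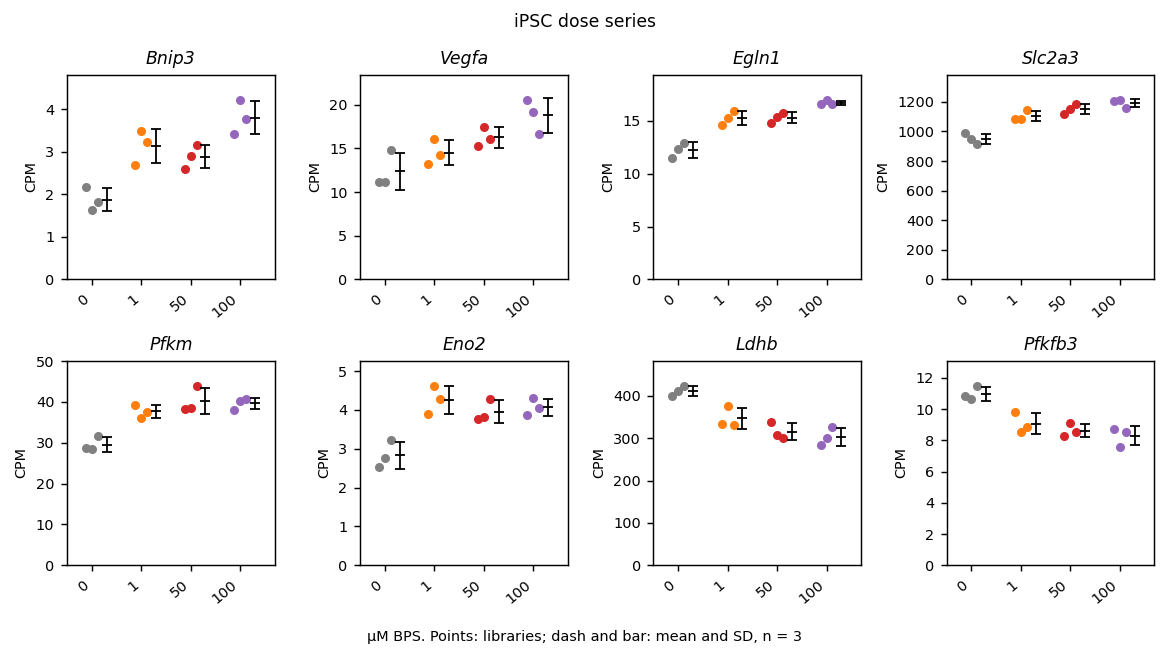
CPM (vertical axes, from 0) of 8 members in iPSCs at 0, 1, 50 and 100 µM BPS (horizontal axes). Points are libraries, and the dash and bar give the mean and SD of 3. Bnip3, Egln1, Slc2a3, Pfkm and Eno2 lay above vehicle at every dose, Vegfa did so without overlap only at the higher doses, and Ldhb and Pfkfb3 lay below vehicle.

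The iPSCs of the propagation experiment, also exposed to 1 µM BPS, gave no member called by limma or voom of 38 tested, against 0.0128% higher and 0% lower of all genes. An unadjusted p under 0.05 was found for 4 members, or 10.5%, against 11.2% of all genes. The share was thus near that of all genes. These members were Pfkm (log2 fold change 0.29, adjusted p = 0.326), Eno2 (log2 fold change 0.55, adjusted p = 0.336), Egln3 (log2 fold change 0.25, adjusted p = 0.41) and Bnip3 (log2 fold change 0.44, adjusted p = 0.446). In the dose series, which shares no library with this experiment, their log2 fold changes at 1 µM were 0.35, 0.58, 0.30 and 0.73. The other members called at 1 µM there, Slc2a3, Egln1, Ldhb and Pfkfb3, had overlapping groups in the propagation iPSCs, and Bnip3 overlapped narrowly as well. Slc2a3 had 985, 857 and 945 CPM after BPS, against 917, 943 and 904 CPM after vehicle. Ldhb had 460, 624 and 476 CPM after BPS, against 468, 481 and 490 CPM after vehicle. Pfkm had 38.2, 39.6 and 35.1 CPM after BPS, against 30.9, 31.1 and 30.3 CPM after vehicle, and Bnip3 had 2.84, 3.21 and 2.70 CPM after BPS, against 1.84, 2.73 and 1.93 CPM after vehicle. BPS replicate 2 stood apart, with Gapdh at 927, 1359 and 948 CPM after BPS, against 1010.4, 986 and 1034 CPM after vehicle, and Hif1a at 146, 95.4 and 132 CPM after BPS, against 155, 154 and 144 CPM after vehicle. Without that library 7 members were called, Hk1 and Pfkm higher and Aldoa, Gapdh, Pkm, Ldha and Pdk3 lower, and a fit of all 42 libraries called 5 (Pfkm, Eno2, Bnip3 and Car9 higher and Hif1a lower). The difference between the 1 µM responses of the 2 iPSC sets gave no member called by limma or voom, against 0% higher and 0% lower of all genes, and 3 of 38 had an unadjusted p under 0.05, against 4.27% of all genes.

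In both somatic cell types a few enzymes were slightly higher after BPS. In Sertoli cells 3 of 39 members (7.69%) were called higher and 0 lower, against 3.76% and 1.48% of all genes. Tpi1, triose phosphate isomerase, had 288, 279 and 279.5 CPM after BPS, against 258, 246 and 242 CPM after vehicle (log2 fold change 0.18 ± 0.033 (SE), adjusted p = 0.00627). Ldha had 401, 398 and 384 CPM after BPS, against 361, 364 and 343 CPM after vehicle (log2 fold change 0.15 ± 0.033 (SE), adjusted p = 0.0156), and Pgk1, which makes ATP from bisphosphoglycerate, had 151, 144 and 138 CPM after BPS, against 132, 129.8 and 121 CPM after vehicle (log2 fold change 0.18 ± 0.04 (SE), adjusted p = 0.0182). The groups of the 3 genes did not overlap, and no HIF factor, sensor or other target passed in limma or voom (2 with an unadjusted p under 0.05). Of 17 enzymes 14 had a fold change above 0, but the share of all genes above 0 was not counted. No member was called without BPS replicate 1 or in a fit of all 42 libraries, and 1 was called without BPS replicate 2 or without vehicle replicate 3. Markers of other cells summed to 1772 to 1812 CPM after BPS and 1867 to 1992 CPM after vehicle, with 3 of 8 tested lower, and their part was not tested.

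In granulosa cells 5 of 40 members (12.5%) were called higher and 0 lower, against 1.95% and 0.656% of all genes. Ldhb had 148, 142 and 138 CPM after BPS, against 124, 121 and 124 CPM after vehicle (log2 fold change 0.22 ± 0.031 (SE), adjusted p = 0.000722). Gapdh had 374, 377 and 369.9 CPM after BPS, against 342, 339 and 344 CPM after vehicle (log2 fold change 0.13 ± 0.024 (SE), adjusted p = 0.00673). Aldoa and Gpi1 were higher, with log2 fold changes of 0.11 (adjusted p = 0.0144) and 0.10 (adjusted p = 0.0352), and Adm had 26.8, 24.1 and 25.97 CPM after BPS, against 20.3, 22.8 and 21.7 CPM after vehicle (log2 fold change 0.24 ± 0.056 (SE), adjusted p = 0.0225). The called groups were separate. Of 17 enzymes 16 had a fold change above 0, but the median of all genes was above 0 too, at 0.022, and the share of all genes above 0 was not counted. Only 2 members were called without BPS replicate 1, and likewise 2 without vehicle replicate 3, and none in a fit of all 42 libraries. Markers of other cells summed to 4345 to 4639 CPM after BPS and 4065 to 4177 CPM after vehicle, with 1 of 8 tested higher, and their part was not tested. Summed over the 24 glycolytic members, RNA was 6788 ± 74.1 CPM after BPS and 6479.8 ± 98.7 CPM after vehicle in Sertoli cells, and 4642 ± 91.6 CPM after BPS and 4429.8 ± 50.6 CPM after vehicle in granulosa cells. Whether these responses differed from those of PGCLCs or iPSCs was not tested.

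**Figure D5:**
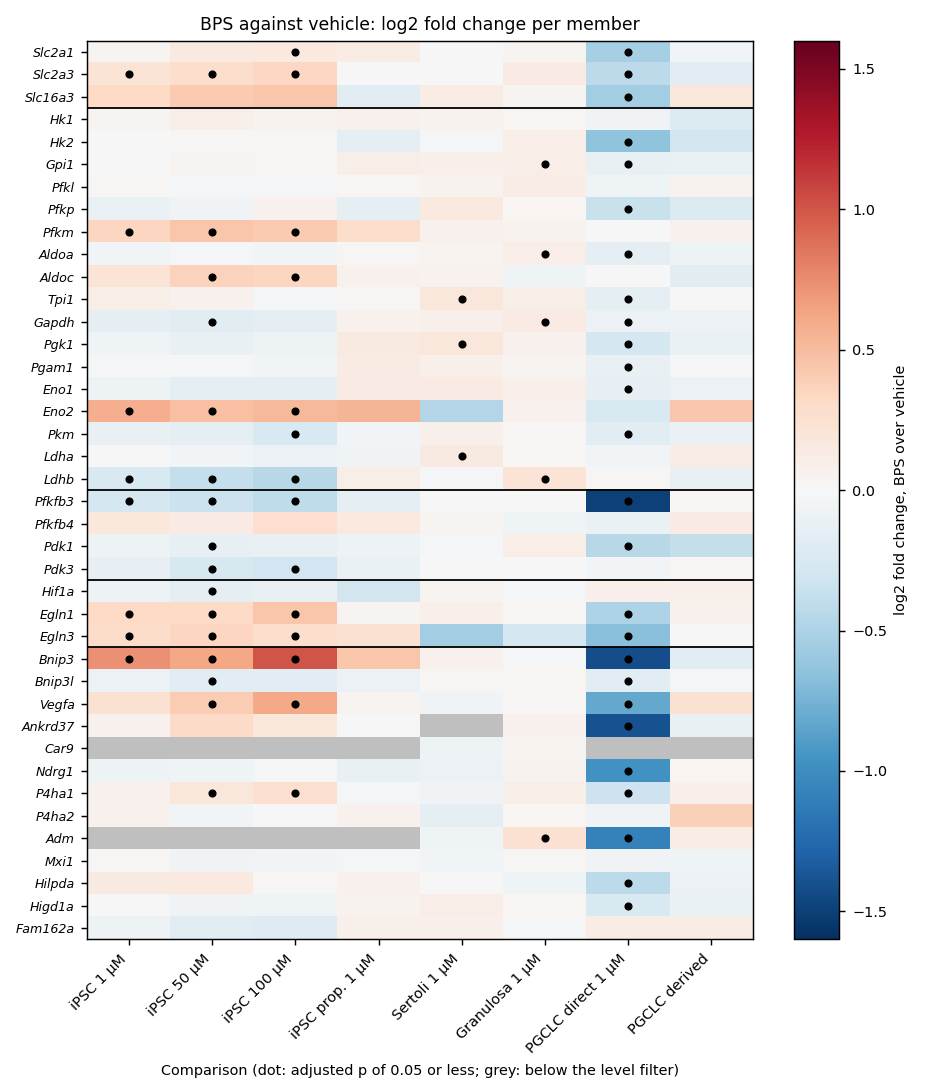
Log2 fold changes of BPS over vehicle (colour) for the 40 members (vertical axis) in 8 comparisons (horizontal axis), with a dot where the adjusted p was 0.05 or less and grey where a member was below the level filter. The column of directly exposed PGCLCs holds 26 dots, all lower, the 3 iPSC doses hold 8, 16 and 14 in both directions, and the propagation iPSCs and derived PGCLCs hold none.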

How the data were processed

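The 40 members and all gene lists were chosen with earlier results of these data known. RNA of 42 libraries (14 groups of 3, named from the sample titles and characteristics) was sequenced as poly(A), strand-specific libraries. The authors used FastQC for read quality, Rsubread for alignment and counting on mm10, and edgeR for TMM scaling of the counts. Versions of Rsubread and edgeR, the annotation, strand setting and any filters were not given in the sources used here. What was deposited is a matrix of log2 CPM with 0.0313 CPM added before the log, so that fold changes of low genes are understated and a gene with 0 reads is at -5.00. CPM was recovered from it, and reads as whole numbers for 100% of values below 1000 reads, while larger values were rounded. Depth was 26693847 to 44524376 reads, and the authors' scaling factors were 0.878 to 1.11. All value columns matched a sample.

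Log2 values were fitted with limma 3.58.1 in R 4.3.3 (trend), on genes with at least 0.5 CPM in at least 3 libraries of the fit. The 3 doses were fitted together in 12 libraries, other comparisons in 6 and differences of responses in 12. Calls were two-sided, with Benjamini-Hochberg adjustment over all genes tested and a threshold of 0.05. The fits were tested on simulated data first. All 40 members were named, with values per library for up to 6 with the smallest adjusted p in a comparison and for isoform partners, and up to 4 genes per list of non-members. Alternatives were voom on the recovered reads, upper quartile scaling, no level filter, 1 added CPM, all 42 libraries in 1 fit, the 6 libraries of 2 groups, a replicate block and each library left out. In the matrix 1222 symbols end in a number for a repeated name, and these were kept apart from the members. No replicate pair agreed within sampling noise (lowest mean chi-square per gene 2.09). Transcript lengths and gene positions came from GENCODE M21 (GRCm38).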

Additional observations from a re-analysis of the deposited data

Results flagged for a closer look

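For 10 members the response to 1 µM BPS differed between directly exposed and derived PGCLCs by a test of that difference in limma (adjusted p of 0.05 or less over all genes tested, 12 libraries). Values are the log2 response in directly exposed PGCLCs minus that in derived PGCLCs, with the 2 responses beside them. Pfkfb3 gave -1.53 (responses -1.496 and 0.037, adjusted p = 0.0014). Bnip3 gave -1.25 (responses -1.42 and -0.17, adjusted p = 0.0164). Ankrd37 gave -1.27 (responses -1.40 and -0.12, adjusted p = 0.0015). In derived PGCLCs none of these responses passed the test of its own comparison. Vegfa gave -1.06 (responses -0.82 and 0.24, adjusted p = 0.0119). Ndrg1 gave -0.998 (responses -0.96 and 0.034, adjusted p = 0.00336). Slc16a3 gave -0.74 (responses -0.56 and 0.18, adjusted p = 0.00683). Vegfa was the only one of the 10 with a response above 0.2 in derived PGCLCs. The sensors followed, Egln3 with -0.66 (responses -0.67 and -0.0059) and Egln1 with -0.56 (responses -0.498 and 0.066). Of the glucose transporters, Slc2a1 gave -0.48 (responses -0.53 and -0.043) and Slc2a3 -0.25 (responses -0.42 and -0.17). The 2 experiments differed in the exposed cell, the time between exposure and collection and the level of these genes in vehicle cells, and these cannot be told apart.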

How the results depend on the processing

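Of 100 counts of called members under an alternative other than leaving out a library, 93 stayed within 1.5 times the reported count. In a fit of all 42 libraries, where the spread is shared by all cell types, 16 members were called in directly exposed PGCLCs, 0 in Sertoli cells, 0 in granulosa cells, 5 in propagation iPSCs and 3 in derived PGCLCs, and in the difference between the PGCLC experiments Slc16a3, Slc2a3 and Egln3 no longer passed (adjusted p = 0.0703, 0.0789 and 0.359). A replicate block changed the count to 5 in Sertoli cells and 3 in granulosa cells, and gave 28 in directly exposed PGCLCs, where Hif1a (log2 fold change 0.086, adjusted p = 0.048) and Fam162a (0.12, adjusted p = 0.0417) were then called higher. Same-numbered libraries were not paired by the labels, in none of 14 comparisons were all 3 correlations of their deviations over 0.1, and every library correlated best with its own number in 0. Under the replicate block Slc2a3 did not pass in the difference between PGCLC experiments (adjusted p = 0.11). With 1 library left out, the counts ranged from 5 to 10 at 1 µM, 10 to 16 at 50 µM and 13 to 15 at 100 µM, from 0 to 1 between 100 and 1 µM, from 0 to 4 in Sertoli cells, from 2 to 5 in granulosa cells, from 23 to 27 in directly exposed PGCLCs, from 0 to 7 in propagation iPSCs, and stayed at 0 in derived PGCLCs. They ranged from 7 to 11 for the difference between PGCLC experiments. Over all comparisons members were called 252 times, and of 3101 alternatives to these values 177 lost the call and 1 changed sign (Bnip3l between Sertoli and granulosa cells, -0.013 under upper quartile scaling). In propagation iPSCs, where no member was called, Gapdh and Aldoa had log2 fold changes of 0.071 and 0.021, and of -0.11 and -0.098 without BPS replicate 2. The causes were not tested. Depth limits Adm and Car9 in iPSCs, which had few reads per library.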
